A study of Mus musculus with 8 samples.

Results

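Potassium channel subunit genes were followed in the striatum of mice labelled PGC-1α null and PGC-1α wild type. The members were all array probes whose gene symbol starts with Kcn and that were detected (detection p under 0.05) on at least 4 of the 8 arrays. Of 125 probes with such a symbol, for 84 genes, 55 probes for 45 genes met this rule, among 13413 probes for 10008 genes kept on the whole array. The mice were on a C57BL/6 background, were aged to postnatal day 30 and gave 4 arrays per group. PGC-1α, encoded by Ppargc1a, is a transcriptional coactivator best known for driving mitochondrial genes. By its title the series concerns loss of the gene from medium spiny neurons, whereas the sample labels call the mice null. The promoter or Cre line, the deleted part of the gene and any pooling of animals are not named in the labels. Nothing in the labels ties each array to its own animal, and the p-values rest on the variation among these 8 samples alone, some of which may be technical.

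Potassium channels let potassium leave the cell and so set the resting potential, end the action potential and limit repetitive firing. Voltage-gated channels (Kcna to Kcnd, Kcnh, Kcnq) open on depolarization, inward rectifiers (Kcnj) hold neurons near rest, tandem-pore channels (Kcnk) carry leak current, and the Kcnm and Kcnn families open with calcium. Medium spiny neurons, the output cells of the striatum, are known for strong inward rectification and for A-type and M-type currents that delay firing.

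Mean raw intensity ran from 295 to 499 per array and 13009 to 13910 probes were detected per array, including 48 to 55 of the 55 potassium channel probes. All 8 arrays lay on 1 chip, with position on the chip tied to group, so the 2 cannot be told apart. Ppargc1a read 7.35, 7.22, 7.90 and 7.98 (normalized log2 intensity) in wild-type and 7.30, 8.09, 8.10 and 7.43 in null arrays. It differed by 0.12 (SE 0.23), so null here means labelled null, and every direction rests on the labels. The X-linked transcript Xist was high (8.26 to 8.70) on wild-type replicates 1, 3 and 4 and null replicate 3, and low (4.59 to 4.91) on the others. Y-linked Eif2s3y was the reverse, at 4.32 to 4.41 on the arrays with high Xist and 9.14 to 9.49 on the others. Y-linked Ddx3y read 9.64 to 11.24 without such a split. By Xist and Eif2s3y the sexes were unevenly spread over the groups, and the main fit did not adjust for sex. The tissue carried the medium spiny neuron markers: 10 of 11 on the array were kept, all 10 with lower means in null arrays (median -0.28), and Ppp1r1b read 13.34 to 14.25. Summed over these markers, the level was 15.98 to 16.17 (log2) on wild-type arrays and 15.37 to 15.98 on null arrays. Cortical excitatory neuron markers had higher means in null arrays for 6 of 6 kept genes (median 0.89), with a score, the mean log2 deviation of the markers from their 8-array means, that was lowest on wild-type replicate 1 (-1.55) and highest on null replicate 2 (1.47). Their summed level was 7.83 to 10.20 on wild-type and 9.59 to 11.93 on null arrays, while Neurod6 was not kept. Cholinergic neuron markers had lower means in null arrays for 9 of 9 genes (median -0.52), with scores of 0.06 to 0.37 on wild-type and -0.65 to -0.03 on null arrays, which did not overlap, and a summed level of 10.77 to 11.05 and 9.94 to 10.74. Oligodendrocyte markers had higher means for 9 of 9 kept genes (median 0.25), with overlapping scores that were lowest on wild-type replicate 3 (-0.99). The part of these cells in the channel values was not tested. The source was tissue, so fewer cells of a type and less RNA per cell cannot be told apart.

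No potassium channel gene passed the test. With limma and Benjamini-Hochberg adjustment over all 13413 probes, 0 of the 55 probes had an adjusted p under 0.05 (0% of all probes), and the smallest adjusted p was 0.59. At an unadjusted p under 0.05 there were 11 of 55 probes (20%), against 6.9% of all probes. These 11 probes stood for 9 genes. With 1 probe per gene, 8 of 45 genes (17.8%) did so, against 6.96% of all genes. Of the 11 probes 6 were lower in null arrays (all probes, 3.7%) and 5 higher (all probes, 3.21%). With the cortical score as a covariate 2 were lower and 2 higher. With null replicate 1, null replicate 2 or wild-type replicate 2 left out, 3 were lower. Without wild-type replicate 1 or 3, 2 were higher. The shares over all probes are not given for these alternative fits, so their counts are not compared with the whole array. The groups did not overlap for 4 of 55 probes (7.27%), against 4.14% of all probes. The log2 difference exceeded 0.5 in size for 6 of 55 probes (10.9%), against 1.83% of all probes. Kcnj6, kept through the null group alone, is in these counts by unadjusted p, overlap and size, where its place supports nothing by itself. As a family the genes did not lean one way: 25 of 45 had a higher mean in null arrays and 20 a lower one, and the median log2 difference was 0.04 against -0.01 over all 10008 genes. Their spread within groups was somewhat wider than usual, with a median SD of 0.25 log2 units per probe against 0.21 over all probes.

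**Figure D1:**
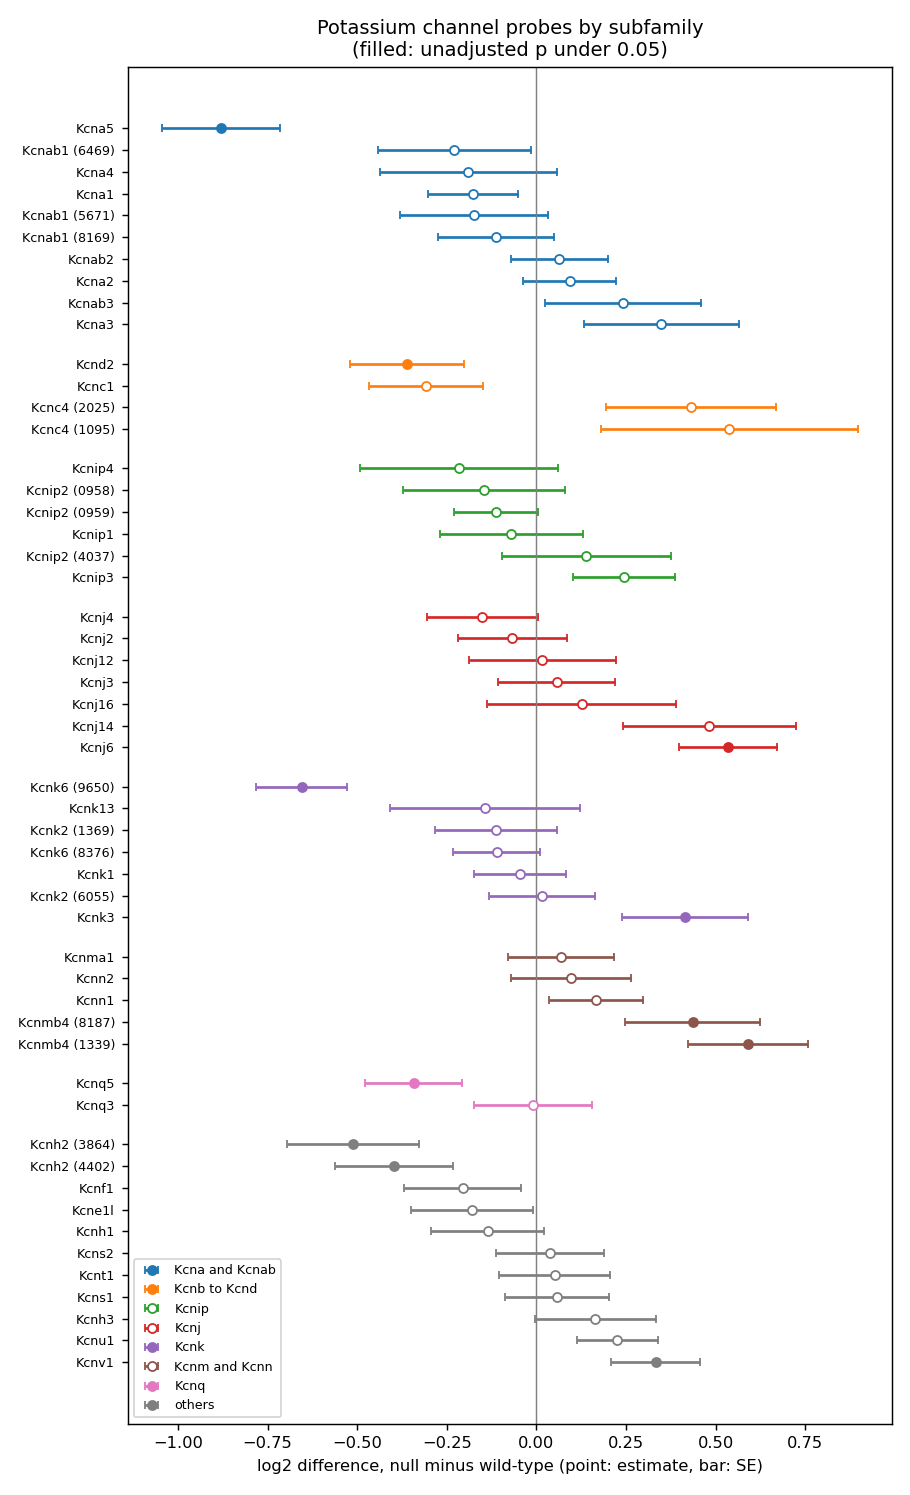
Log2 difference, null minus wild-type, for the potassium channel probes reported here (point: limma estimate, bar: SE, 4 arrays per group), grouped by subfamily, with the last digits of the probe name where a gene has several probes. Filled points have an unadjusted p under 0.05; Kcna5 lies farthest to the left at -0.88 and a Kcnmb4 probe farthest to the right at 0.59.

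The voltage-gated Shaker-type genes were led by Kcna5, a delayed-rectifier subunit best known from heart and vascular smooth muscle. Kcna5 read 7.92, 7.63, 7.76 and 7.54 in wild-type and 7.03, 6.61, 7.17 and 6.52 in null arrays. Every null array lay below every wild-type array, which was the case for 2.59% of all probes. The difference was -0.88 (SE 0.16, 95% interval -1.24 to -0.52), or 0.54 of the wild-type level, with an unadjusted p of 0.000187 that ranked 2 among all 13413 probes and a limma adjusted p of 0.59. It lay between -0.99 and -0.78 when any single array was left out, and was -0.51 without background correction. With the cortical score as a covariate it was -0.66, and with the level of Xist -0.73. Markers of mural cells, which surround vessels, were lower too: 5 of 6 kept genes were lower in null arrays (median -0.19), with a summed level of 9.75 to 10.06 in wild-type and 9.46 to 9.93 in null arrays. Endothelial markers were lower in 8 of 8 genes (median -0.17), with a summed level of 11.08 to 11.28 in wild-type and 10.87 to 11.14 in null arrays. The part of these cells in the Kcna5 difference was not tested.

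In the RefSeq gene order of GRCm38.p6, Kcna5, Kcna1 and Kcna6 are neighbours on chromosome 6, and their values differed. Kcna1, a low-threshold axonal subunit, had a difference of -0.18 (SE 0.13), and Kcna6 was detected on 3 arrays and not kept. The same holds for Kcna3, Kcna2 and Kcna10 on chromosome 3, where Kcna3 stood at 0.35 (SE 0.22), Kcna2 at 0.09 (SE 0.13) and Kcna10 was not kept. Of the 8 Kcna and Kcnab genes 4 were higher and 4 lower, with a median of -0.05. Kcna4, an A-type subunit, differed by -0.19 (SE 0.25), and by 0.08 without null replicate 2, where it read 5.56 against 6.19 to 6.87 on the other arrays.

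The Kcnab genes encode cytoplasmic beta subunits of the Shaker-type channels. The 3 probes of Kcnab1 differed by -0.23 (SE 0.21), -0.17 (SE 0.21) and -0.11 (SE 0.16). The lowest value of each was that of null replicate 2, at 11.00, 11.17 and 7.49, and without that array the differences were 0.00, 0.02 and 0.02 in size and no longer shared a sign. Medium spiny neuron markers were also lowest there, with a score of -0.54 against -0.17 to 0.30 on the other arrays, and their part in these differences was not tested. Kcnab2 differed by 0.06 (SE 0.14) and Kcnab3 by 0.24 (SE 0.22).

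To show how unlike the regulatory sequence of members can be, the 250 bases before the annotated start are given for Kcna5, the member with the largest difference, and for Kcnmb4, the member with the largest difference the other way. Both are RefSeq promoters of build GRCm38.p6 on the minus strand, written 5′ to 3′ with each CG pair in capitals, at chr6:126535556-126535805 and chr10:116473524-116473773.
Kcna5: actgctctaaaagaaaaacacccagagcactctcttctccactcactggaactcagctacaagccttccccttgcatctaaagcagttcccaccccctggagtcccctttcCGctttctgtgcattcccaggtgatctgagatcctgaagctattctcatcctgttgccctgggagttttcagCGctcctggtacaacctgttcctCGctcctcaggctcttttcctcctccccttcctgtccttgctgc
Kcnmb4: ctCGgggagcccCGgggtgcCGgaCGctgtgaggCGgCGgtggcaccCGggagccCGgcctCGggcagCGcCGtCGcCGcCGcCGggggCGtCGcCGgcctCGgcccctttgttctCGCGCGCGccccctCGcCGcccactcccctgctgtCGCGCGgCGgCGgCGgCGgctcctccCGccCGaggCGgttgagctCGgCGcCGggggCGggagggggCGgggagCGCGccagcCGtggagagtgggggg
The Kcna5 window held 3 CG pairs and 53.2% G and C, and the Kcnmb4 window held 43 CG pairs and 83.6% G and C. Promoters were listed for 31 of the 45 genes, 49 windows in all, whose median was 8 CG pairs (range 0 to 43) against 6 over all 32851 promoters.

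Among the Shaw and Shal genes, Kcnd2 and Kcnc1 had lower means in null arrays. Kcnd2, the pore subunit of the somatodendritic A-type current, read 8.87, 9.31, 9.27 and 8.91 in wild-type and 8.75, 8.41, 8.74 and 9.01 in null arrays. Only null replicate 4 reached into the wild-type range. The difference was -0.36 (SE 0.16, unadjusted p = 0.042, limma adjusted p = 0.71). Kcnc1, the fast delayed rectifier of fast-spiking neurons, read 9.504, 9.82, 9.45 and 9.45 in wild-type and 8.96, 9.05, 9.40 and 9.59 in null arrays. The difference was -0.31 (SE 0.16, unadjusted p = 0.079). Pvalb, which encodes the calcium buffer parvalbumin of those neurons, read 9.02, 9.26, 5.74 and 5.28 in wild-type and 9.52, 6.43, 5.11 and 9.87 in null arrays. Both genes were highest on wild-type replicate 2 and null replicate 4 of their groups. They parted on null replicate 1, where Pvalb read 9.52 and Kcnc1 8.96, its lowest value on any array. On null replicate 3 Pvalb was at its lowest, 5.11, while Kcnc1 read 9.40. With the parvalbumin neuron score as a covariate the Kcnc1 difference was -0.28. That score followed Pvalb, and its markers Gpr83 and Pthlh did not share the pattern of Pvalb.

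The Shaw-type gene Kcnc4 had a higher mean in null arrays and the widest spread of the family. Its probe ILMN_2771095 read 8.10, 9.09, 7.95 and 9.20 in wild-type and 9.03, 9.90, 8.22 and 9.34 in null arrays, and probe ILMN_1242025 read 4.58, 5.05, 4.56 and 4.68 against 4.90, 5.60, 4.48 and 5.61. The groups overlapped for both, with differences of 0.54 (SE 0.36) and 0.43 (SE 0.24). ILMN_1242025 was detected on 1 wild-type and 3 null arrays. High and low arrays occurred in each group. The cortical marker score was -1.55, 0.03, -0.56 and 0.26 in wild-type and 0.32, 1.47, -0.30 and 0.33 in null arrays, so the 2 wild-type arrays and the 1 null array with the lowest Kcnc4 were those with the lowest cortical score in their group. With that score as a covariate the differences were -0.16 for ILMN_2771095 and 0.12 for ILMN_1242025. With the level of Xist as a covariate they were 0.040 and 0.076. Leaving out any single array gave 0.28 to 0.84 and 0.28 to 0.65. With the replicate number as a block the unadjusted limma p was 0.00977 and 0.0320, against 0.160 and 0.0943 in the main fit. The adjusted p with that block was 0.61 and 0.63.

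Kcnip genes encode calcium-binding partners of the Shal channels, and none stood apart: 2 of 4 were higher and 2 lower, with a median of 0.03. Kcnip3, also known as the transcriptional repressor DREAM, had the largest difference at 0.24 (SE 0.14). The 3 Kcnip2 probes are annotated to transcript variants a, b and c, and differed by -0.15 (SE 0.23), -0.11 (SE 0.12) and 0.14 (SE 0.24). The probe of variant c was highest on null replicate 3 at 9.06, without which the difference was -0.07. Kcnip4 differed by -0.22 (SE 0.28) and Kcnip1 by -0.07 (SE 0.20).

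**Figure D2:**
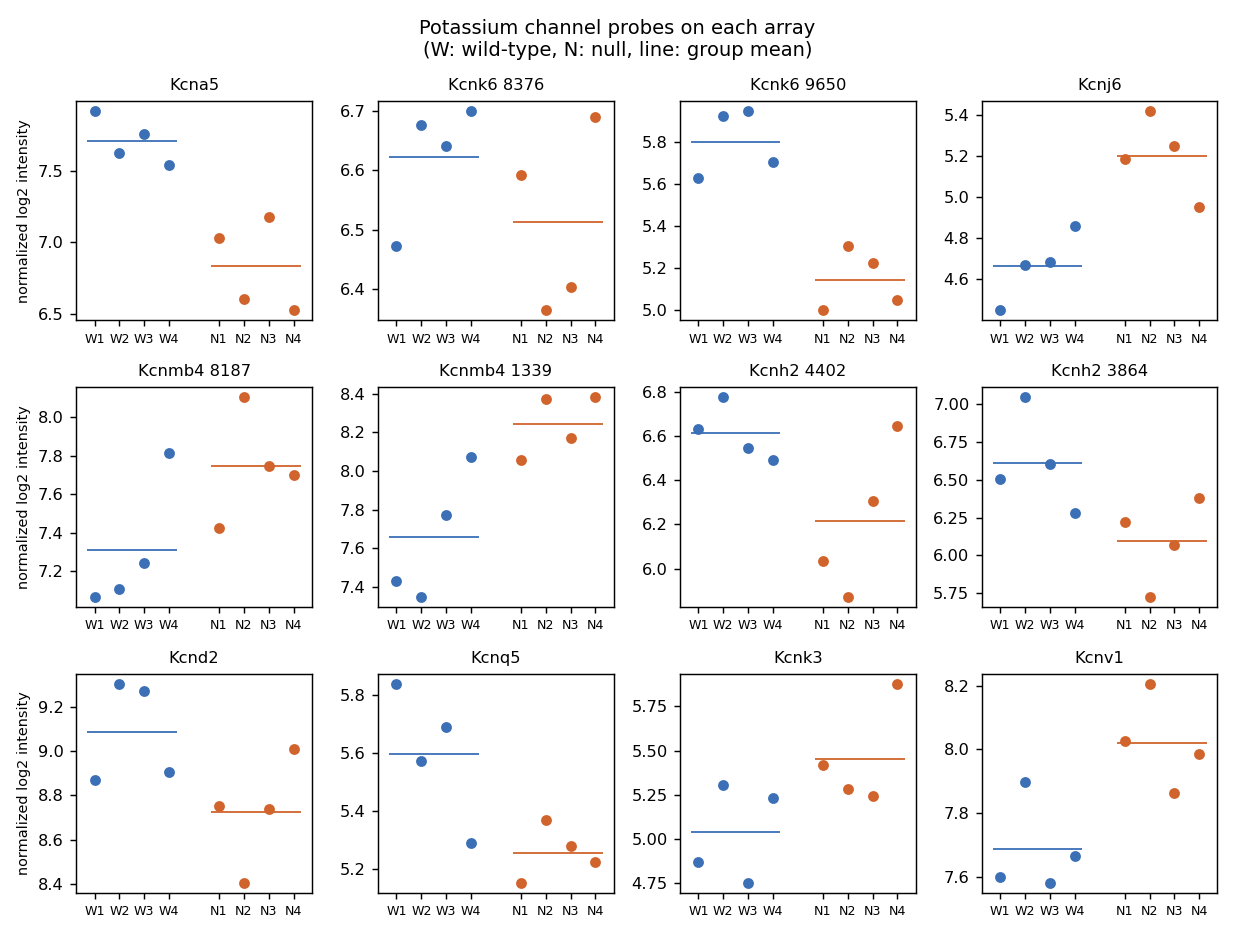
Normalized log2 intensity of the 12 probes of the 9 genes with a probe at an unadjusted p under 0.05, on each wild-type (W) and null (N) array, numbered by replicate, with a line at each group mean. Axes differ between panels. The groups are apart for Kcna5, Kcnj6 (kept through the null group alone) and the Kcnk6 probe ILMN_3049650. They overlap for the others, including the Kcnk6 probe ILMN_1258376.

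Among the inward rectifiers, the G protein-gated subunit Kcnj6 had the largest difference. Kcnj6 read 4.45, 4.67, 4.68 and 4.86 in wild-type and 5.19, 5.42, 5.25 and 4.95 in null arrays, without overlap and higher in null arrays (all probes, 1.54%). It was detected on 0 wild-type and all 4 null arrays, so it entered the kept probes only through the null group and its level in wild-type arrays is a bound. Against the floor of detected signal it was at least 1.25-fold brighter in null arrays. The measured means were 5.20 in null and 4.67 in wild-type arrays, with a limma adjusted p of 0.66. Because the filter was met through the null group alone, its place in any count given here, of unadjusted p, direction, overlap or size, supports nothing by itself. Its highest value fell on null replicate 2 and its lowest on wild-type replicate 1, as for the cortical markers. With that score as a covariate the fitted value, no more than a description here, was 0.38 against 0.53. These values are of probe ILMN_3112363 alone. Of the other Kcnj6 probes, ILMN_3038066 was detected on 0 wild-type arrays and 1 null array, and ILMN_2720186 and ILMN_3162725 on 0 arrays. Kcnj3, the channel partner of Kcnj6, differed by 0.06 (SE 0.16), and Kcnj9 was not detected on any array.

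The inward rectifiers that hold medium spiny neurons at rest showed small differences. Kcnj4 read 9.68, 9.83, 9.998 and 9.48 in wild-type and 9.27, 9.63, 9.86 and 9.62 in null arrays. The difference was -0.15 (SE 0.15, 95% interval -0.49 to 0.19). Kcnj2 differed by -0.07 (SE 0.15, interval -0.40 to 0.27). These intervals leave room for changes of either sign. Of the 7 Kcnj genes 5 were higher and 2 lower (median 0.06). The higher genes include Kcnj6, kept through the null group alone. They also include Kcnj12 and Kcnj14, detected on 2 wild-type arrays each and on 4 and 3 null arrays, while Kcnj16 was detected on 4 wild-type and 3 null arrays. The count of directions therefore supports nothing by itself. The glial subunit gene Kcnj16 differed by 0.13 (SE 0.26), with null replicate 2 at 6.18 and the other arrays at 4.68 to 5.28. Kcnj14 differed by 0.48 (SE 0.24), with null replicate 4 at 6.06 and the others at 4.48 to 5.22, and by 0.22 without that array. Kcnj12 differed by 0.02 (SE 0.21).

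The tandem-pore gene Kcnk6 gave different answers by probe. Probe ILMN_3049650 read 5.63, 5.92, 5.95 and 5.70 in wild-type and 4.9996, 5.30, 5.22 and 5.05 in null arrays. These groups did not overlap, and the difference was -0.65 (SE 0.13, 95% interval -0.93 to -0.38, unadjusted p = 0.000265, rank 6 of 13413, limma adjusted p = 0.59). Probe ILMN_1258376, annotated to the same transcript, read 6.47, 6.68, 6.64 and 6.70 against 6.59, 6.36, 6.40 and 6.69, overlapping, with a difference of -0.11 (SE 0.12, interval -0.38 to 0.16). The gap between these probes was 0.70 to 1.00 log2 units on wild-type and 1.06 to 1.64 on null arrays. The probe sequences are not used here, so which part of the transcript each reads is not given. The difference of ILMN_3049650 was -0.61 to -0.71 when any single array was left out, -0.19 without background correction and -1.04 in the authors' processed values.

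Of the 5 Kcnk genes 2 were higher and 3 lower, with a median of -0.05 that takes Kcnk6 at ILMN_1258376. Kcnk3, an acid-sensitive leak channel, read 4.87, 5.31, 4.75 and 5.23 in wild-type and 5.42, 5.28, 5.24 and 5.88 in null arrays. The difference was 0.41 (SE 0.18, unadjusted p = 0.0364). The ranges overlapped, and the difference was 0.27 without null replicate 4, 0.11 without background correction and 0.24 with the level of Xist as a covariate. Kcnk1 differed by -0.05 (SE 0.13). The 2 probes of Kcnk2, a mechanosensitive and lipid-sensitive leak channel, differed by 0.02 (SE 0.15) and -0.11 (SE 0.17).

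Kcnk13, a leak channel known from microglia, split each group along the same arrays as parvalbumin. It read 7.88, 7.88, 7.31 and 7.34 in wild-type and 8.01, 7.01, 6.87 and 7.95 in null arrays. The difference was -0.14 (SE 0.27). The 4 arrays at 7.88 or more were wild-type replicates 1 and 2 and null replicates 1 and 4, which were also the 4 arrays with Pvalb above 9. The score of 7 kept microglial markers was 0.06 and -0.06 on these 2 wild-type arrays and 0.10 and 0.04 on these 2 null arrays, against -0.05 to -0.03 on the other 4, and its part in the Kcnk13 values was not tested. Its SD within groups, 0.48, exceeded that of 97.7% of all probes. With the parvalbumin neuron score as a covariate the difference was -0.01. Not all 4 kept genes of that score split this way. Cplx1 was high on the same arrays as Pvalb, but Gpr83 was highest on wild-type replicate 3 (11.59) and Pthlh lowest on null replicate 4 (4.79). Pvalb had by far the widest spread of the 4, with an SD within groups of 2.22.

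**Figure D3:**
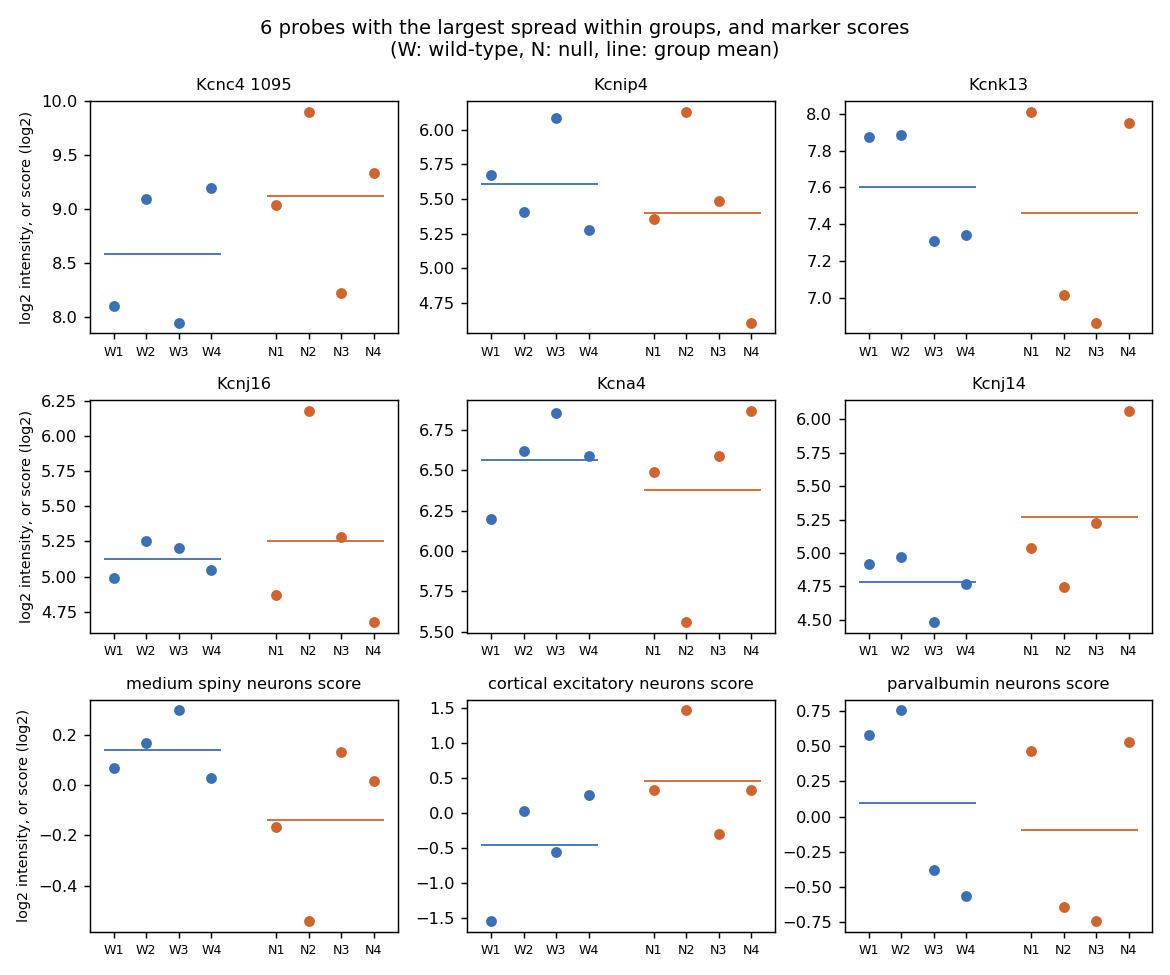
Normalized log2 intensity of the 6 potassium channel probes with the largest SD within groups, and scores (mean log2 deviation) of 3 marker lists, on each wild-type (W) and null (N) array with a line at each group mean. Axes differ between panels. Kcnk13 and the parvalbumin neuron score, which its markers Gpr83 and Pthlh did not follow, are high on W1, W2, N1 and N4. Kcnc4 and the cortical score both peak on N2.

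The calcium-activated family was the one subfamily in which every gene had a higher mean in null arrays, 4 of 4 with a median of 0.13. It was led by Kcnmb4, the neuronal beta subunit of the large-conductance channel. Its probe ILMN_3101339 read 7.43, 7.35, 7.77 and 8.07 in wild-type and 8.06, 8.37, 8.17 and 8.38 in null arrays, and 3 null arrays lay above all wild-type arrays while null replicate 1 fell just under wild-type replicate 4. The difference was 0.59 (SE 0.17, 95% interval 0.23 to 0.96, unadjusted p = 0.00427, limma adjusted p = 0.70), 1.51 times the wild-type level. Probe ILMN_3028187 read 7.07, 7.11, 7.24 and 7.82 against 7.43, 8.10, 7.75 and 7.70, a difference of 0.44 (SE 0.19, unadjusted p = 0.0401). Both probes had higher means in null arrays, with wild-type replicate 4 the highest of its group in each. With the cortical score as a covariate the differences were 0.44 and 0.20, and that of ILMN_3028187 was 0.27 without background correction. The pore subunit Kcnma1 differed by 0.07 (SE 0.15), and the small-conductance genes Kcnn1 and Kcnn2 by 0.17 (SE 0.13) and 0.10 (SE 0.17). Without wild-type replicate 1 Kcnma1 stood at -0.06, so the shared direction of the 4 genes did not hold.

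The Kcnq genes encode the M-type channels that muscarinic receptors close. Kcnq5 read 5.84, 5.57, 5.69 and 5.29 in wild-type and 5.15, 5.37, 5.28 and 5.22 in null arrays, with overlap at wild-type replicate 4 alone. Its difference was -0.34 (SE 0.14, unadjusted p = 0.0272, limma adjusted p = 0.71), and -0.10 without background correction. Kcnq3 differed by -0.01 (SE 0.16).

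**Figure D4:**
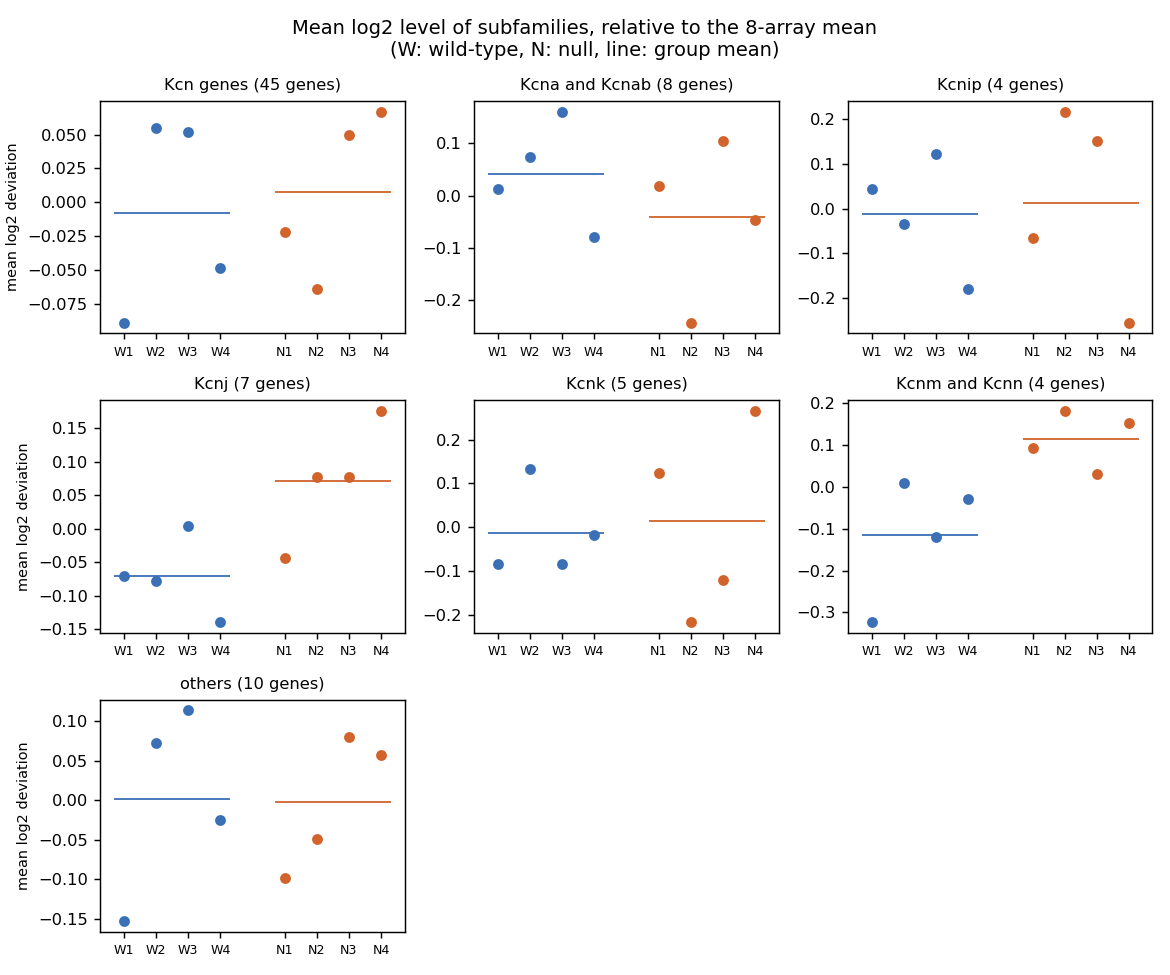
Mean log2 deviation from the 8-array mean over all 45 potassium channel genes and over 6 subfamilies, on each wild-type (W) and null (N) array with a line at each group mean. Axes differ between panels. The mean of the 4 Kcnm and Kcnn genes is 0.03 to 0.18 on null arrays and -0.32 to 0.01 on wild-type arrays, without overlap. For each of these genes alone the groups overlap, and the mean over all 45 genes overlaps too.

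Of the remaining 10 genes 6 were higher and 4 lower (median 0.04). Both kept probes of Kcnh2, the ERG channel that shapes repolarization, were lower in null arrays, and its probe ILMN_3048027 was detected on 0 arrays. Probe ILMN_3123864 read 6.50, 7.05, 6.60 and 6.28 in wild-type and 6.22, 5.73, 6.07 and 6.38 in null arrays. The difference was -0.51 (SE 0.18, unadjusted p = 0.0169, limma adjusted p = 0.70). Probe ILMN_1244402 read 6.63, 6.77, 6.55 and 6.49 against 6.04, 5.87, 6.31 and 6.64, a difference of -0.40 (SE 0.16, unadjusted p = 0.0328). Null replicate 4 reached the wild-type range in both and null replicate 2 was lowest in both. Without background correction the differences were -0.22 and -0.17. The related genes Kcnh1 and Kcnh3 differed by -0.14 (SE 0.16) and 0.16 (SE 0.17).

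Kcnv1, an electrically silent subunit that modifies Shab channels, read 7.60, 7.90, 7.58 and 7.67 in wild-type and 8.03, 8.21, 7.86 and 7.99 in null arrays. Null replicate 3 alone fell below wild-type replicate 2. The difference was 0.33 (SE 0.13, unadjusted p = 0.0211, limma adjusted p = 0.70), and 0.21 with either the cortical score or the level of Xist as a covariate. The silent genes Kcns1, Kcns2 and Kcnf1 differed by 0.06 (SE 0.14), 0.04 (SE 0.15) and -0.21 (SE 0.16). Kcnu1, known as a sperm channel, read 6.34 to 6.49 in wild-type and 6.52 to 6.77 in null arrays, without overlap; its difference was 0.23 (SE 0.11, unadjusted p = 0.069) and its SD within groups, 0.0977, exceeded that of only 5.29% of all probes. The X-linked beta subunit gene Kcne1l differed by -0.18 (SE 0.17) and the sodium-activated channel gene Kcnt1 by 0.05 (SE 0.15).

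By role, the 32 pore-forming genes had 17 with a higher and 15 with a lower mean in null arrays (median 0.02), the 9 auxiliary genes 5 higher and 4 lower (median 0.06) and the 4 silent genes 3 higher and 1 lower (median 0.05).

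For the coactivator studied here, the binding letters of some of its usual partners, and the cAMP response element, were looked for. Both strands of the 250 bases before each start were read. AAGGTCA, the core motif bound by estrogen-related receptors (ERR), occurred in 3 of 49 potassium channel windows (6.12%) and in 4.08% of all 32851 promoters. The cAMP response element TGACGTCA and the NRF1 palindrome, GCGC followed by ATGCGC, occurred in 0 of the 49, against 1.55% and 0.782% of all promoters. The ERR matches are shown with 10 bases on either side, 5′ to 3′ on the gene's strand with the match in capitals, since they mark which members carry it: chr12:17176947-17176973 (minus strand), chr1:192190544-192190570 (plus strand) and chr11:110967833-110967859 (plus strand), in GRCm38.p6.
Kcnf1: gttgtggtacAAGGTCAcaccaccacc
Kcnh1: agtcttcttgTGACCTTttcgggtgtg
Kcnj16: tatacttgagTGACCTTcagagaaaca
The last 2 carry the motif on the other strand. None of these 3 genes was among those with an unadjusted p under 0.05. Their differences were -0.21, -0.14 and 0.13. A match is a description of letters, not of binding.

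Other genes that place, anchor or modulate potassium channels were taken from a list of 34, of which 27 were kept. Of these 8 had a higher and 19 a lower mean in null arrays, against 4857 and 5151 of all 10008 genes. Their median was -0.09 against -0.01 over all genes, and 0 had an adjusted p under 0.05. The list was chosen with earlier results of these data known, so its lean is a description only. At an unadjusted p under 0.05, 4 were lower and 1 higher, 5 of 27 against 697 of all 10008 genes (6.96%). Cntnap2, which anchors Shaker channels beside the node of Ranvier, read 9.44, 9.12, 9.45 and 8.75 in wild-type and 8.47, 8.56, 8.78 and 8.38 in null arrays. The difference was -0.64 (SE 0.17, unadjusted p = 0.00253, limma adjusted p = 0.66). Only null replicate 3 passed the lowest wild-type array. Ank3 (ankyrin G), which holds Kcnq channels at the axon initial segment, differed by -0.42 (SE 0.14). It lay at 10.06 to 10.42 on wild-type and 9.46 to 9.93 on null arrays, without overlap. Of the 27 genes, 2 were lower in null arrays without overlap, against 2.59% of all probes. The other was Rgs7, at -0.19 (SE 0.12). Dpp6, a partner of the Shal channels, differed by -0.36 (SE 0.14) and Amigo1, a partner of the Shab channels, by -0.29 (SE 0.13). Vapb, an endoplasmic reticulum protein that binds Shab channels, stood at 0.40 (SE 0.18). The 2 kept Hcn cation channel genes were both lower, with a median of -0.06.

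A further 39 potassium channel genes on the array were not kept. No probe was detected on any array for 20 of them, and the best probe was detected on 1 array for 8, on 2 arrays for 8 and on 3 arrays for 3. The fast-spiking neuron gene Kcns3 and the mural cell gene Kcnj8 were among them. At the edge of the rule, Kcnj6, Kcns1 and a Kcnc4 probe were detected on exactly 4 arrays, with differences of 0.53, 0.06 and 0.43. Just outside it, detected on 3 arrays, Kcna10 stood at -0.08, Kcna6 at 0.11 and Kcnh5 at 0.01. Of the 6 kept probes detected on 4 to 6 arrays, all 6 were detected on more null than wild-type arrays. Over the 44 probes detected on all 8 arrays 6 were lower and 3 higher at an unadjusted p under 0.05. The matching shares over all probes are not given, so neither count is set apart from the array as a whole.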

How the data were processed

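RNA from striatum was hybridised to Illumina mouse bead arrays, 4 wild-type and 4 null. The deposited values are, per the file headers, non-normalized bead intensity averages on a linear scale. They come with detection p-values, also deposited, which say how far a probe lies above that array's control beads. GenomeStudio is named in the submitters' processing notes. The authors' processed intensity values, made by a method the labels do not describe, were set to at least 16 and served as an alternative.

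Intensities were corrected and quantile-normalized with neqc (offset 16, log2) in limma 3.58.1 under R 4.3.3. Probes with detection p under 0.05 on at least 4 of 8 arrays were fitted with lmFit and eBayes (null minus wild-type). Tests were two-sided, and p-values were adjusted by Benjamini-Hochberg across the 13413 probes, with a threshold of 0.05. Gene counts used the probe with the highest mean. Replicates and groups came from the sample titles. With 4 arrays a group, precision is limited, and potassium channel probes had a median SE of 0.16. The fit was tested on simulated data. Intervals are 95% intervals of the fit.

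The members, lists and tests were chosen with earlier results of these data known. Named genes were those at an unadjusted p under 0.05, without overlap, with the largest difference of a subfamily, with several probes, among the 6 largest SDs within groups, or known from striatal cells. Genes outside this rule are given by value only. Gene names are those of the array. Alternatives were other background corrections, normalizations and detection filters, the processed values, covariates, array weights, the replicate number as a block and leaving out each array. Some items the rules would name are not reported here.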

Additional observations from a re-analysis of the deposited data

Results flagged for a closer look

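In 82 groups of 4 arrays (41 probes of named genes, in each of the 2 labels), 4 had 1 array far from the others, 4.88% of those looked at, and chance flags about 1 in 20. Kcna1 stood low on wild-type replicate 1 at 6.36 (gap to the nearest array over the range of the group 0.873) and high on null replicate 1 at 6.57 (0.857). Kcnc1 stood high on wild-type replicate 2 at 9.82 (0.856), and Kcnn2 stood high on the same array at 6.31 (0.86).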

How the results depend on the processing

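With limma, 0 potassium channel probes had an adjusted p under 0.05 in the reported setting and in each of the 20 alternatives. At an unadjusted p under 0.05 the reported counts were 6 lower and 5 higher. They were 4 and 3 with median centring, 6 and 3 with detection on all 8 arrays, and 2 and 2 with the cortical score as a covariate. With the replicate block they were 4 and 7. For these settings, and with 1 array left out, the share over all probes is not given. Leaving out 1 array gave 3 to 6 lower (3 without null replicate 1, without null replicate 2 or without wild-type replicate 2) and 2 to 6 higher (2 without wild-type replicate 1 or wild-type replicate 3). Kcna5, Kcnk6 (ILMN_3049650) and Kcnmb4 (ILMN_3101339) kept their direction and an unadjusted p under 0.05 in each of the 20, with the largest p being 0.00256, 0.00415 and 0.0446; adjusted p ran from 0.34 to 1.00 over these. The family median of 0.04 ran from -0.02 to 0.08 with 1 array left out, was -0.03 with detection on all 8 arrays and -0.01 over all 55 probes. Same-numbered arrays deviated together with correlations of 0.09, 0.00, 0.23 and 0.05 in size. The best-matching null array had the same number for wild-type replicates 1, 3 and 4, and was null replicate 4 for wild-type replicate 2. The main fit took same-numbered arrays to share only a number, which these values do not settle.

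Signs turned for named genes as follows, and the cause was not tested. With the cortical score as a covariate the differences were 0.17 for Kcnab1 (ILMN_2915671), -0.16 for Kcnc4 (ILMN_2771095), 0.089 for Kcnip2 (ILMN_2680958), -0.17 for Kcnj16, 0.17 for Kcnj2, -0.063 for Kcnj3, -0.14 for Kcnma1 and 0.19 for Kcnq3. With Xist level in the model, an alternative added after seeing the data, they were 0.044 for Kcnab1 (ILMN_2618169), 0.024 for Kcnj2, 0.094 for Kcnk2 (ILMN_2651369), -0.067 for Kcnn2 and 0.074 for Kcnq3. Kcnj16 was -0.031 and Kcnq3 0.0060 with array weights, Kcnk2 (ILMN_1226055) was -0.031 with median centring and -0.013 with the parvalbumin score as a covariate, and Kcnq3 was 0.0012 with the latter. With 1 array left out, Kcna4 ran from -0.35 to 0.082, Kcnab1 from -0.22 to 0.015 (ILMN_2618169) and -0.31 to 0.017 (ILMN_2915671), Kcnip2 from -0.32 to 0.033 (ILMN_2680958) and -0.070 to 0.36 (ILMN_3124037), and Kcnip4 from -0.46 to 0.048. Kcnj16 ran from -0.18 to 0.32, Kcnj2 from -0.17 to 0.032, Kcnj3 from -0.063 to 0.18, Kcnk13 from -0.33 to 0.055, Kcnk2 (ILMN_1226055) from -0.097 to 0.093, Kcnma1 from -0.059 to 0.14 and Kcnq3 from -0.13 to 0.078. Leaving out Kcnq1ot1 and Kcnrg was not run, as neither was kept.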
